A study of Mus musculus with 32 samples.

Results

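The response to rosiglitazone (RSG) was measured in IL-4-treated macrophages grown from the bone marrow of 4 C57Bl/6 mice that carry PPARg fl/-LysCre, written here Pparg fl/- LysCre. The members are the 8 arrays of this genotype and cell type, 4 with vehicle and 4 with RSG, out of 32 arrays in the series. They are defined by their labels of genotype, cell type and treatment, and each mouse, numbered 5 to 8, gave 1 vehicle and 1 RSG culture, so every change below is RSG minus vehicle within a mouse. The marrow cells were grown with 20 ng/ml M-CSF and 20 ng/ml IL-4 for 9 days as labelled, with DMSO:ethanol as vehicle or with 1 μM RSG. The comparison groups are the macrophages of 4 Pparg+/- LysCre mice, 8 arrays treated in the same manner, and the immature DCs (iDCs) of the same 4 Pparg fl/- mice, 8 arrays grown with 20 ng/ml GM-CSF in place of M-CSF. Both genotypes carry the Cre transgene and 1 null Pparg allele, so that the genotypes differ in whether the other allele is floxed or intact.

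PPARγ is a nuclear receptor that binds DNA as a partner of RXR, and RSG is a synthetic ligand of it from the thiazolidinedione class. In macrophages and DCs PPARγ is known for inducing genes of lipid uptake, storage and oxidation, and IL-4, which acts through STAT6, drives the alternatively activated state in which PPARγ is abundant. LysCre expresses Cre from the lysozyme locus, which is active in myeloid cells. The deletion was not checked on these 8 arrays, because no array probe with a gene name matched Pparg.

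Of 33012 probes, 325 (0.984%) could be given a gene symbol, and the others are written by the array's own identifiers, such as mCG4048.2. None of the 8 macrophage markers looked for (Adgre1, Csf1r, Cd68, Itgam, Mertk, Fcgr1, Lyz2 and Cd14) had a probe with a name, nor had any dendritic cell, neutrophil, mast cell or lymphoid marker, and the cell type label was therefore not checked. Of erythroid markers, Hba-a1, an alpha-globin, was detected on 3 of 4 arrays of each treatment, with a change of -0.10 with RSG (-0.17 without mouse 5 and -0.058 without mouse 6), and Eraf, a chaperone of free alpha-globin, on 0 of 4. The stromal marker Sfrp4 was detected on 1 of 4. Arrays of a treatment correlated across probes at 0.951 to 0.967 with vehicle and at 0.950 to 0.957 with RSG. Mouse 5 stood apart from the other Pparg fl/- mice: against vehicle-treated Pparg+/- macrophages, limma without a mouse term called 26 probes with it and 2488 without it. In a fit of the 7 other vehicle arrays alone 2454 probes were called, and for 2110 of these (86%) mouse 5 lay nearer to the Pparg+/- mean than to that of mice 6 to 8. With vehicle, Ear1 read 17.20 in mouse 5, 14.59 to 15.24 in mice 6 to 8 and 17.37 to 17.66 in the Pparg+/- mice, and Crip1 read 19.02, 17.58 to 17.73 and 18.74 to 19.11 in the same order. Left out in turn, mice 6, 7 and 8 gave 1, 2 and 3 calls. For most of the 2454 probes the vehicle levels of mouse 5 thus go against its genotype label, and the reason was not tested. Sfrp4 went the other way, at 6.02 in mouse 5, 6.63 to 9.48 in mice 6 to 8 and 11.22 (mean) in Pparg+/- mice. The counts of calls, the list medians and the detected genes that mouse 5 moves by over 1.5 times are given with and without it. Mice 5 and 6 were scanned on 1 day and mice 7 and 8 on another, and no day held both genotypes, so that scan day and genotype cannot be told apart.

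Fewer probes were above background after RSG, as in the Pparg+/- macrophages. A probe was taken as detected at a signal-to-noise ratio (S/N) of at least 3. The vehicle arrays of mice 5, 6, 7 and 8 had 15293, 15650, 16009 and 15879 detected probes, and the RSG arrays had 15126, 15227, 14743 and 14197. The RSG array was lower in 4 of 4 mice, and the groups did not overlap. The mean difference was -884.5 ± 709 probes (SD, n = 4 mice), with p = 0.125 in an exact two-sided sign-flip permutation test, the smallest p that 4 pairs allow. Without mouse 5 it was -1124. In the 4 Pparg+/- mice the RSG array was lower in 4 of 4 as well, by -1278 ± 458, and the difference between genotypes of 393.8 probes had p = 0.371 in an exact two-sided permutation test of 4 mice against 4. Of all probes, 19 were detected on all 4 vehicle arrays and no RSG array, 3 went the other way, 11604 were detected on all 8 arrays and 11089 on none. The cause of the lower count was not tested. In such bulk cultures, fewer cells of a type and less RNA per cell cannot be told apart.

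**Figure D1:**
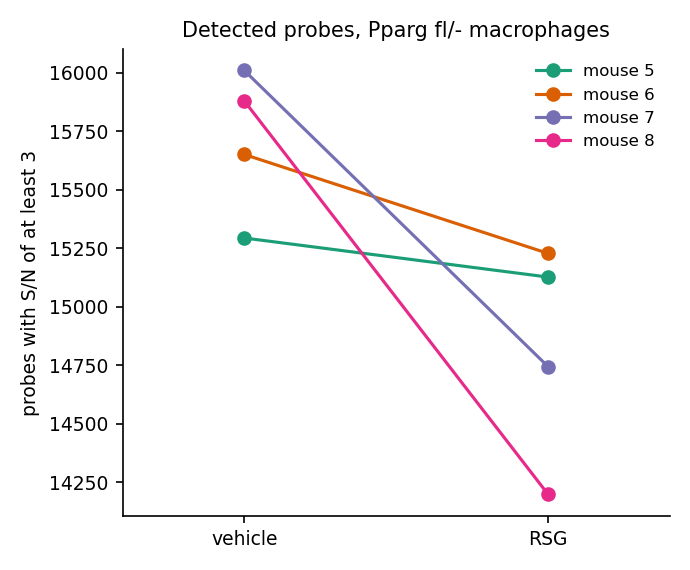
Number of probes with S/N of at least 3 (vertical axis, which does not start at 0) on the vehicle and RSG array of each Pparg fl/- mouse, with a line per mouse. The 4 RSG arrays lie at 14197 to 15227, below the 4 vehicle arrays at 15293 to 16009.

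Few probes of Pparg fl/- macrophages passed the test for a change with RSG. Of 16620 probes tested, 5 (0.0301%) were called, which took a change of 1.5-fold or more and, in limma with the mouse as a block, a p under 0.05 after Benjamini-Hochberg adjustment. Of these, 3 (0.0181%) were higher and 2 (0.012%) lower; with each array scaled by its median, 5 were called as well, 2 higher and 3 lower. A total of 1198 probes (7.21%) had an unadjusted p under 0.05. Without the mouse as a block 0 probes were called and 497 had an unadjusted p under 0.05. The spread in the main fit came from the mice of both genotypes. In a fit of only the 8 arrays compared, with the mouse as a block, 0 probes were called. Without mouse 5 the changes of the 5 probes were 2.92, 1.23, 0.94, -1.15 and -1.62, and their adjusted p were 0.0749 to 0.0769. Over all probes, none was called without mouse 1, 2, 5, 6 or 8, 1 without mouse 3 and 2 without mouse 4, all among the 5. Without mouse 7 the count was 5 again, but only 3 of these were among the 5, since mCG12380.1 and mCG123926.1 were no longer called. In Pparg+/- macrophages the same fit called 494 probes (2.97%), 205 higher and 289 lower (116 and 424 of 540 with median scaling). Without mouse 1, 2, 3 or 4 it called 259, 260, 295 or 281 there, and 199 without the mouse as a block. In iDCs of the Pparg fl/- mice it called 202 (1.22%), 104 higher and 98 lower. Leaving out mouse 5, 6, 7 or 8 gave 31, 0, 45 or 1 calls there, and median scaling gave 93. These counts are not a test of the difference between the groups, which follows below.

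The brightest called probe was that of mCG4048.2. Its normalized log2 signals with vehicle were 14.54, 14.34, 13.48 and 14.42 in mice 5 to 8, and with RSG they were 15.78, 15.62, 14.45 and 15.86. Mouse 7 was the lowest with either treatment, its RSG value lay below 1 of the other vehicle values, and the gap from vehicle to RSG was alike in the 4 mice. The change was 1.23 ± 0.09 (log2, mean of 4 mice ± SE; adjusted p = 0.0137 in limma). Here and below, the SE of a change comes from the limma fit. Its spread is pooled over the mice of both genotypes, not taken from these 4 mice alone. A further probe with this identifier read 10.89, 11.10, 10.30 and 11.58 with vehicle and 12.12, 11.70, 11.24 and 12.21 with RSG, a change of 0.85 ± 0.11 that did not pass (adjusted p = 0.116). The brighter probe changed in Pparg+/- macrophages by 1.22 ± 0.09, and the difference between genotypes was 0.0061 with a 95% interval of -0.30 to 0.31. In iDCs of the Pparg fl/- mice it changed by 1.23 ± 0.19 (adjusted p = 0.0316).

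The probe of mCG23392.1 was near background without RSG. Its log2 signals with vehicle were 7.44, 8.96, 7.25 and 8.80 in mice 5 to 8, and with RSG 9.85, 11.41, 10.64 and 11.71. It was above background on 1 of 4 vehicle arrays and on 4 of 4 RSG arrays, and the groups did not overlap. The fitted change was 2.79 ± 0.21 (log2, SE; adjusted p = 0.0137 in limma), which rests on 3 vehicle values that are not above background. In Pparg+/- macrophages the probe was above background on 0 of 4 vehicle and 4 of 4 RSG arrays and was at least 6.91-fold higher with RSG, so the difference between genotypes was not measured. In the iDCs it was 1.05 ± 0.62, which did not pass the test (adjusted p = 0.470).

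mCG19440 read 11.16, 12.09, 12.11 and 12.46 with vehicle and 12.11, 13.24, 12.89 and 13.34 with RSG, detected on all 8 arrays. Mouse 5 was the lowest with both treatments, and its RSG value lay among the vehicle values of the other mice. The change was 0.94 ± 0.08 (log2, SE; adjusted p = 0.0159 in limma), and the call was lost with median scaling (0.80, adjusted p = 0.227). In Pparg+/- macrophages the probe rose by 1.16 ± 0.08, a difference of -0.22 between genotypes (95% interval -0.48 to 0.04). It also rose in Pparg fl/- iDCs, by 1.39 ± 0.22 (adjusted p = 0.0370). All 3 probes called higher in Pparg fl/- macrophages were thus called higher in the macrophages of the other genotype too, and 2 of them in the iDCs. Over all probes, 2.97% and 1.22% were called in these groups in either direction. The macrophage calls of both genotypes used the same SE for a probe, so they are not independent.

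The 2 probes called lower were dim. mCG12380.1 read 9.75, 8.68, 9.44 and 8.46 with vehicle and 8.88, 7.62, 8.21 and 7.31 with RSG, above background on 3 and 2 of 4 arrays. It fell by 1.08 ± 0.10 on the log2 scale (adjusted p = 0.0320 in limma), and as it was above background on 2 and 0 of 4 arrays in Pparg+/- macrophages, the difference between genotypes was not measured. mCG123926.1 read 9.02, 8.31, 8.60 and 9.21 with vehicle and 8.08, 6.70, 6.92 and 7.63 with RSG, and the groups did not overlap. It was above background on 3 of 4 vehicle arrays and on 0 of 4 RSG arrays, so it was at least 2.63-fold lower with RSG, taking each RSG array at its lowest detected signal where that was higher. The fitted change, -1.45 ± 0.15 (adjusted p = 0.0458), is not itself a bound. In Pparg+/- macrophages and in Pparg fl/- iDCs it was above background on 0 of 4 arrays of either treatment, so that no change was measured there. A brighter probe with the same identifier, detected on all 8 arrays, changed by -0.06 ± 0.15, so the probes of this identifier disagreed.

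**Figure D2:**
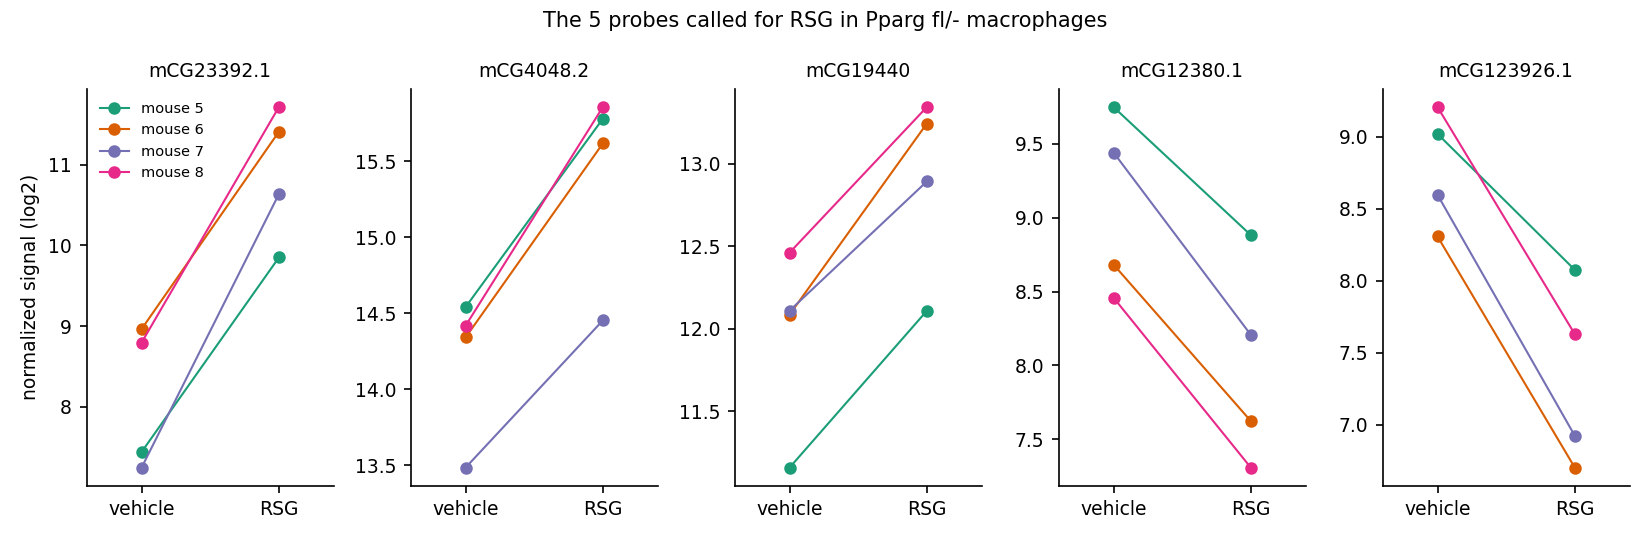
Normalized signal (log2, vertical axes that differ between panels and do not start at 0) of the 5 called probes with vehicle and RSG, with 1 line per Pparg fl/- mouse. The lines of each panel run in 1 direction, with changes of 2.79, 1.23, 0.94, -1.08 and -1.45 on the log2 scale from left to right.

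Some probes moved in every mouse, the 5 called ones among them. Changes of at least 1.5-fold in each of the 4 Pparg fl/- mice were found upward for 21 probes (0.126% of those tested), 3 of them called, and downward for 50 (0.301%), 2 of them called. In the 4 Pparg+/- mice the corresponding numbers were 146 and 258, and 8 and 11 probes passed in all 8 mice. The 8 were 38.1% of the Pparg fl/- probes and 5.48% of the Pparg+/- probes, and the 11 were 22.0% and 4.26%. Most of these probes in Pparg fl/- macrophages were close to background, since 14 of the 21 and 48 of the 50 were not detected on all 8 arrays. Over mice 6 to 8 alone, where fewer mice have to pass, the numbers were 55 and 199. Of the 21 and the 50, 8 and 9 were called in Pparg+/- macrophages, where 2.97% of all probes were.

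The 9 that were detected on all 8 arrays, which are named here after their values were seen, belong to these 8 and 9. The 7 that were higher include both probes of mCG4048.2 and that of mCG19440. mCG117647.1 read 10.78, 9.10, 9.58 and 9.25 with vehicle and 12.72, 11.16, 10.27 and 12.17 with RSG, a change of 1.90 ± 0.31 against 3.19 in Pparg+/- macrophages. mCG10847.2 read 11.76, 12.59, 12.45 and 12.58 with vehicle and 13.79, 13.77, 13.39 and 13.96 with RSG, a change of 1.38 ± 0.19 against 2.31. Its groups did not overlap, whereas for mCG117647.1 the RSG value of mouse 7 lay below the vehicle value of mouse 5. mCG124367.1, the brightest, went from 15.36, 16.06, 15.95 and 16.41 to 17.15, 17.16, 16.79 and 17.95, a change of 1.32 ± 0.16 against 1.78. mCG63940.2 went from 11.12, 10.57, 9.91 and 10.38 to 12.42, 11.47, 10.78 and 11.93, a change of 1.16 ± 0.13 against 2.89. For this probe the 95% interval of the difference between genotypes, -2.17 to -1.30, excluded 0 with an adjusted p of 0.0576. The 2 that were lower were mCG1865.2, with -1.20 ± 0.19 against -1.73, and mCG121671.1, with -1.11 ± 0.16 against -0.89. None of these 6 identifiers passed the adjusted test in Pparg fl/- macrophages (adjusted p 0.0701 to 0.206 in limma).

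Among genes with a name, 150 probes were detected in Pparg fl/- macrophages and 0 were called, with an unadjusted p under 0.05 for 13. Their median change was -0.0054 (log2), 71 were higher and 79 lower, and for 104 the 95% interval of the change lay within 1.5-fold in both directions. Of the 14692 probes detected in these macrophages 10148 (69.1%) had such an interval and 12467 (84.9%) one within 2-fold. Of the 16620 probes tested, changes of at least 1.5-fold were seen for 1235 (7.43%), 388 higher and 847 lower, and of the detected probes for 794 (5.4%). Over the tested probes, vehicle and RSG arrays did not overlap for 245 (1.47%), 81 higher (0.487%) and 164 lower (0.987%).

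Of a list of 27 genes drawn up for PPARγ action and lipid metabolism, 4 had a probe with a name, and 0 of these were called. Their median change was -0.18, beside -0.014 over all probes tested. Fabp4, Angptl4, Cd36 and Pdk4 of this list had no probe with a name, so the median is not a measure of PPARγ targets. Epdr1, a lysosomal ependymin-related protein, read 9.40, 10.53, 9.97 and 9.78 with vehicle and 8.90, 9.52, 9.09 and 8.98 with RSG, lower within each mouse though the groups overlapped. Its change was -0.80 ± 0.15 (log2, SE; unadjusted p = 0.000707, adjusted p = 0.258 in limma), against -1.34 ± 0.15 in Pparg+/- macrophages, where it was called. The difference between genotypes was 0.54 (95% interval 0.06 to 1.02, adjusted p = 0.558). Acyp2, an acylphosphatase, read 12.83, 12.28, 11.97 and 11.75 with vehicle and 12.58, 11.74, 11.43 and 11.25 with RSG. It was lower in 4 of 4 mice, by -0.46 ± 0.12 (adjusted p = 0.399), and in Pparg+/- macrophages it changed by the same -0.46 ± 0.12. Sgms2, a sphingomyelin synthase, changed by 0.21 ± 0.10 (0.067 with median scaling and 0.098 without mouse 5) and was higher in 3 of 4 mice. Paqr3, a Golgi protein of the progestin and adipoQ receptor family, changed by 0.10 ± 0.23, or by -0.052 with median scaling.

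Of 18 genes of alternative activation, only Ear1 had a probe with a name. Ear1 is an eosinophil-associated ribonuclease that belongs to a family of close copies, so its probe may also bind their transcripts. With vehicle it read 17.20, 14.64, 14.59 and 15.24 in mice 5 to 8, and with RSG 17.19, 15.84, 15.08 and 16.58. Mouse 5 was the highest with both treatments and did not differ between them, while the other 3 mice were higher with RSG by 1.20, 0.49 and 1.34. The mean change was 0.76 ± 0.21 (adjusted p = 0.419), or 1.01 without mouse 5. In Pparg+/- macrophages the probe was called, with a change of 1.75 ± 0.21 that was seen in 4 of 4 mice, at 1.56 to 1.86. The difference between genotypes was -0.99 (95% interval -1.68 to -0.31, adjusted p = 0.406). In iDCs of the same Pparg fl/- mice Ear1 rose by 2.29 ± 0.24 (adjusted p = 0.0129), and the effect in macrophages was smaller than that in iDCs by 1.53 (difference -1.53, adjusted p = 0.0465 in limma over all 32 arrays).

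Of 15 inflammation genes Nlrp3, the sensor of an inflammasome, had a probe with a name, and it was detected on 1 vehicle and 2 RSG arrays. Its changes in mice 5 to 8 were 0.67, 1.16, -0.55 and -1.83, so that no direction was shared, and the mean of -0.14 became 0.42 without mouse 8 and -0.41 without mouse 5. Of 11 genes of antigen presentation H2-Q8, a nonclassical MHC class I gene of a family with close copies, had a probe with a name. It read 10.46, 12.55, 13.44 and 13.09 with vehicle and 9.64, 13.15, 14.20 and 13.25 with RSG, with mouse 5 far below the others. The probe was detected on 3 vehicle and 4 RSG arrays. In Pparg+/- macrophages it was detected on 0 arrays of either treatment and read 9.05 to 9.69 with vehicle, near the level of mouse 5. Its change was 0.17 ± 0.34 (adjusted p = 0.959), or 0.012 with median scaling, -0.020 without mouse 7 and 0.51 without mouse 5.

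The named genes with the largest rises that were shared by all 4 mice, of which there were 9, had mean changes of 0.08 to 0.51, and 0 passed the adjusted test. Edar, the ectodysplasin receptor, had a change of 0.51 ± 0.65, an SE whose spread includes Pparg+/- mouse 4 at -3.80. It read 12.46, 12.77, 8.96 and 12.45 with vehicle and 12.72, 12.96, 10.24 and 12.75 with RSG, and mouse 7, which was far below the others, held the largest change, 1.27. Without mouse 7 its change was 0.25, below the 0.31 of Akap7. Akap7, an anchor of protein kinase A, was higher by 0.33 ± 0.15 (0.20 with median scaling and 0.22 without mouse 5). Cebpb, a bZIP transcription factor of myeloid cells, read 14.43, 15.06, 15.00 and 15.03 with vehicle and 14.64, 15.26, 15.21 and 15.54 with RSG. Its change was 0.28 ± 0.08 (unadjusted p = 0.00713, adjusted p = 0.419), against 0.64 ± 0.08 in Pparg+/- macrophages, where it was called. With median scaling it was 0.14. A brighter Cebpb probe changed by 0.06 ± 0.07. Dynlt1b, a dynein light chain, changed by 0.26 ± 0.09, and Hsd17b10, a mitochondrial dehydrogenase, by 0.18 ± 0.07, with no overlap of its groups. With median scaling these changes were 0.13 and 0.044.

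Tnfsf13, which encodes the cytokine APRIL, read 14.90, 14.65, 14.71 and 14.77 with vehicle and 15.14, 14.69, 14.85 and 15.12 with RSG. The groups overlapped and the change was 0.19 ± 0.10 (0.048 with median scaling), against 0.62 ± 0.10 in Pparg+/- macrophages (difference -0.43, 95% interval -0.77 to -0.08, adjusted p = 0.505). Gnas, the stimulatory G protein subunit, Wnk4, a kinase, and Zbtb18, a zinc finger repressor, changed by 0.14, 0.12 and 0.08, and with median scaling by -0.0038, -0.027 and -0.049.

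Among named genes that were lower in all 4 mice, the 10 largest falls ran from -1.05 to -0.22, again with 0 past the adjusted test. Gpbar1, the bile acid receptor TGR5, read 8.92, 7.63, 8.62 and 8.51 with vehicle and 7.24, 7.21, 7.78 and 7.24 with RSG, above background on 3 and 1 of 4 arrays. Its change was -1.05 ± 0.29 (unadjusted p = 0.00698, adjusted p = 0.419), which rests on 3 RSG values that are not above background, and the RSG value of mouse 7 lay above the vehicle value of mouse 6. Vmn1r52, a vomeronasal receptor, changed by -0.94 ± 0.43 and was above background on 3 and 2 arrays. Mt3, a metallothionein, changed by -0.73 ± 0.18, with mouse 5 at -0.074 and the other mice at -0.72 to -1.26. Ramp3, a partner of calcitonin-like receptors, read 10.74, 11.15, 10.82 and 11.45 with vehicle and 9.83, 10.30, 10.53 and 10.62 with RSG, and its groups did not overlap. Its change was -0.72 ± 0.16 (unadjusted p = 0.00249, adjusted p = 0.303), beside -0.40 in Pparg+/- macrophages and -0.97 in Pparg fl/- iDCs. Crip1, a LIM domain protein, and Trim59, a tripartite motif protein, changed by -0.32 ± 0.11 and -0.29 ± 0.10, and for both mouse 5 lay above every other mouse with either treatment. Cd99, a surface glycoprotein, and Mydgf, a growth factor of myeloid cells, changed by -0.23 ± 0.12 and -0.22 ± 0.08. With median scaling Crip1 and Mydgf were at -0.47 and -0.36.

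**Figure D3:**
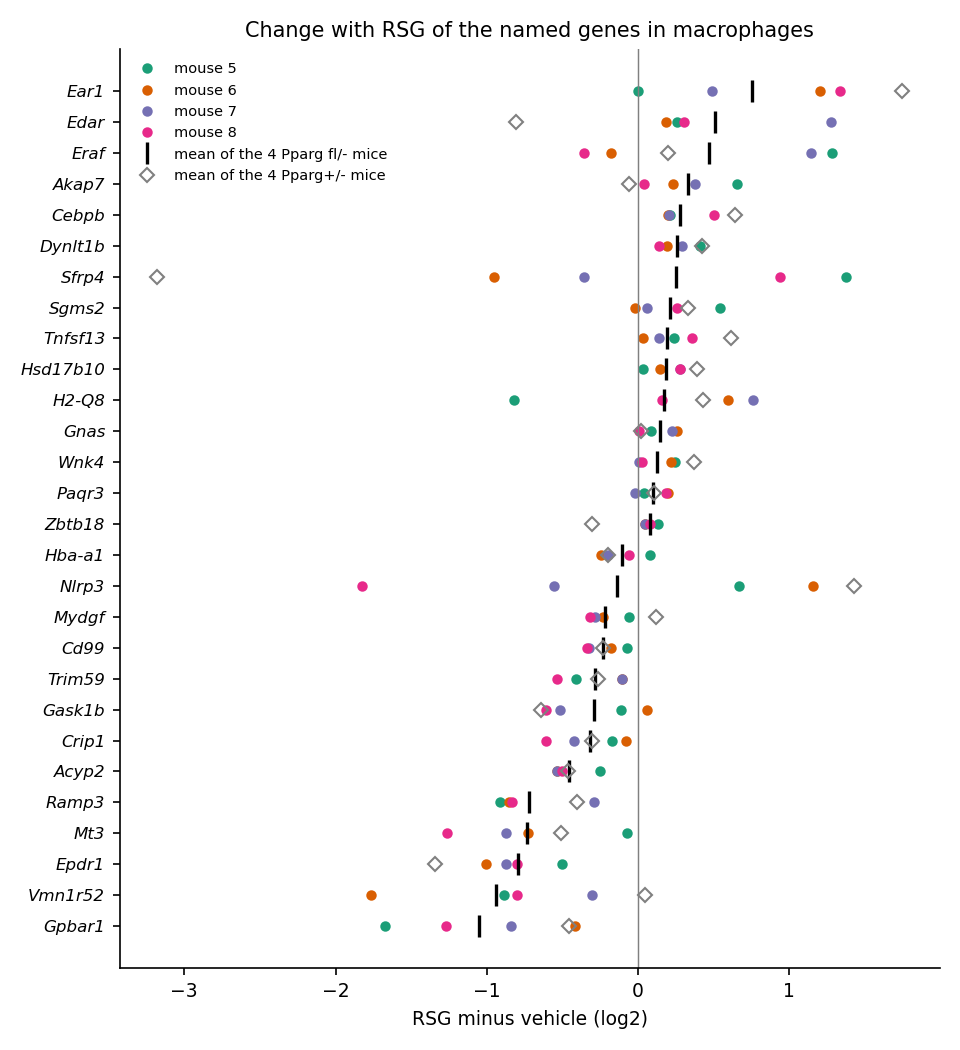
Change with RSG (horizontal axis, log2 of RSG minus vehicle) of the named genes in macrophages, with points for the 4 Pparg fl/- mice, a bar for their mean and an open diamond for the mean of the 4 Pparg+/- mice. Ear1 has the highest mean (0.76) and Gpbar1, above background on 1 of 4 RSG arrays, the lowest (-1.05) in Pparg fl/- macrophages, and Sfrp4, near background in Pparg fl/- macrophages, has a mean of 0.25.

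Among the named genes called in Pparg+/- macrophages there were 6, and 5 had a mean change of the same sign in Pparg fl/- macrophages: Ear1, Epdr1, Cebpb, Tnfsf13 and Gask1b. Gask1b, a Golgi-associated kinase, changed by -0.29 ± 0.13 (-0.19 without mouse 8) against -0.64 ± 0.13. The sixth, Sfrp4, a secreted antagonist of Wnt signalling, was called lower in Pparg+/- macrophages, where it was above background on 4 of 4 vehicle and 0 of 4 RSG arrays and at least 9.06-fold lower with RSG. In Pparg fl/- macrophages it was above background on 1 of 4 arrays of either treatment, with changes of 1.37, -0.96, -0.36 and 0.94 in mice 5 to 8 and a mean of 0.25 (-0.12 without mouse 5). With Sfrp4 near background under vehicle in these mice, no fall could be measured, and its difference in response between genotypes was not measured.

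The 250 bases before the start sites of Ear1 and Epdr1 are shown because these genes had the largest changes with RSG among the 5 that kept their sign. They are from RefSeq on GRCm38.p6, Ear1 at chr14:43819640-43819889 on the minus strand and Epdr1 at chr13:19619831-19620080 on the minus strand, printed 5′ to 3′.
Ear1: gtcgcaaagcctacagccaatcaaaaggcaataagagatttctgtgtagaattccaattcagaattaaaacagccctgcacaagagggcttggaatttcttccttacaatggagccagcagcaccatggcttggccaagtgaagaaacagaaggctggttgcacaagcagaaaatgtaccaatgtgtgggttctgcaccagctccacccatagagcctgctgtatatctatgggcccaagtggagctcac
Epdr1: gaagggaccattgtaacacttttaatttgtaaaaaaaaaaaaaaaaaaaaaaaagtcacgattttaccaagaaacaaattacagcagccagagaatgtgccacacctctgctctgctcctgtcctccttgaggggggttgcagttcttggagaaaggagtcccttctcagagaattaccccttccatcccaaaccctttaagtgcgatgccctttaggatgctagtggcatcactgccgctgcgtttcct
Searched on both strands, neither window nor those of Cebpb, Tnfsf13 and Gask1b held the PPAR-RXR element as AGGTCANAGGTCA, its core hexamer AGGTCA, which lies within it, or the STAT6 element as TTCNNNNGAA, so no base is in capitals. Of 32841 such windows of all genes 0.0335% held the first, 14.0% the hexamer and 5.85% the STAT6 letters. This says only that these letters are not in these windows.

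The probes that responded in Pparg+/- macrophages mostly moved in the same direction in Pparg fl/- macrophages. They were chosen by their changes in other mice, and no control array is shared. The choice also used the spread within the Pparg fl/- mice, since both genotypes were fitted together. The 205 probes called higher in Pparg+/- macrophages had a median change of 0.29 (log2) in Pparg fl/- macrophages, and 174 (84.9%) were higher there, while over all probes tested the median was -0.014 and 46.3% were higher. The 289 probes called lower had a median change of -0.31, and 250 (86.5%) were lower. In all 4 Pparg fl/- mice 102 of the 205 were higher and 132 of the 289 lower, against 6.3% and 8.9% of all probes tested. At least 1.5-fold in the same direction were 48 and 56, against 2.33% and 5.1% of all probes. In the opposite direction were 70 of the 494, 4 of them by at least 1.5-fold. The medians in the mice on which the probes were chosen, 0.94 and -1.04, are raised in size by that choice, so that the sizes in the 2 genotypes are given side by side and not compared. Across the 494 probes the changes in both genotypes had a Pearson's r of 0.730, a value that the separation of higher from lower probes sets in part and that is across probes, not replicates. Of the 494, 455 were detected in Pparg fl/- macrophages, with medians of 0.28 for 190 higher and -0.31 for 265 lower.

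**Figure D4:**
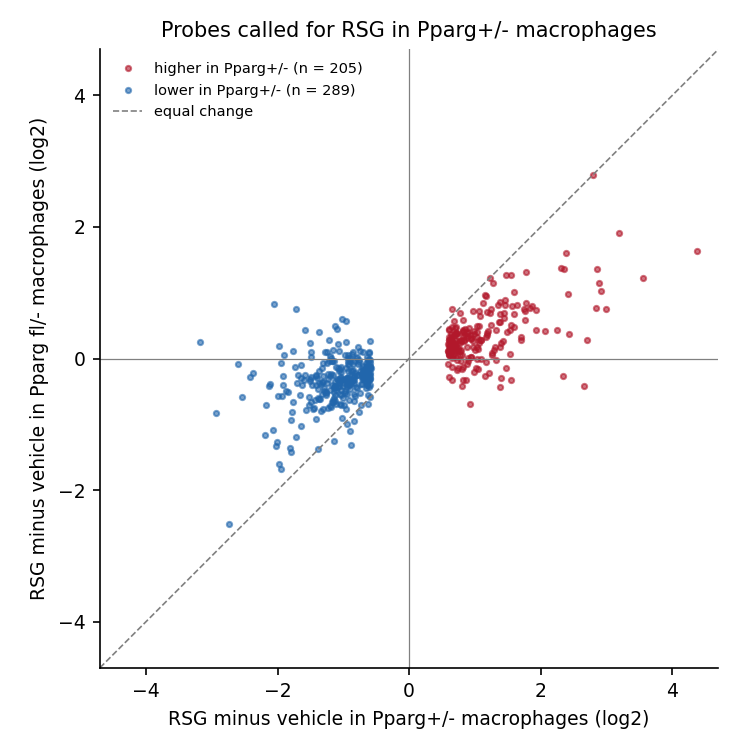
Change with RSG (log2 of RSG minus vehicle) of the 494 probes called in Pparg+/- macrophages, in those macrophages (horizontal axis) and in Pparg fl/- macrophages (vertical axis), with a point per probe and a dashed line at equal change. The probes were chosen on the horizontal axis, so distance from the dashed line is set in part by the choice, and 174 of 205 on the right and 250 of 289 on the left keep their direction.

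The list medians of each Pparg fl/- mouse showed this on their own. The median of the 205 probes was 0.33 in mouse 5, 0.22 in mouse 6, 0.17 in mouse 7 and 0.40 in mouse 8. The median of the 289 was -0.24, -0.33, -0.23 and -0.44 in the same order. Mouse 8 had the largest median and mouse 7 the smallest in both lists. Medians do not show single probes, which could differ between mice. mCG22990.2, with the largest change in Pparg+/- macrophages (4.37), changed by 3.88, 1.03, 0.35 and 1.26 in mice 5 to 8. It was above background on 0 vehicle and 2 RSG arrays of these mice. mCG119412.1 (2.65 in Pparg+/- macrophages) changed by -1.90 in mouse 5 and was above background on 1 array of either treatment. The 4 Pparg+/- mice, on which the probes were chosen, had medians of 0.83 to 1.08 and -0.96 to -1.04. Within scan days the medians were 0.27 and -0.28 for mice 5 and 6 and 0.29 and -0.33 for mice 7 and 8, and without mouse 5 they were 0.26 and -0.33. Median scaling moved the median of all probes by more than 0.1, from -0.014 to -0.13, and relative to it the lists stood at 0.31 and -0.29, against 0.30 and -0.29 with quantile normalization.

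**Figure D5:**
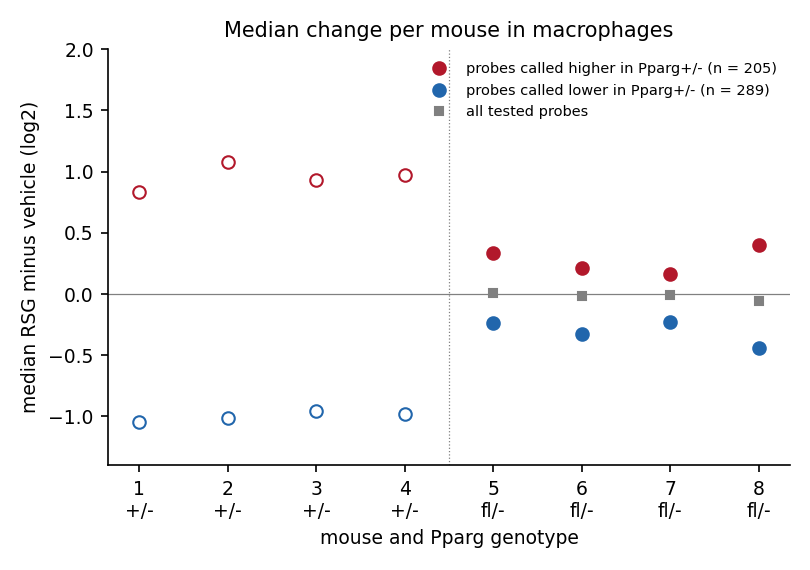
Median change with RSG (log2) in macrophages of each mouse for the 205 probes called higher and the 289 called lower in Pparg+/- macrophages, with open points for the mice on which the probes were chosen and squares for all probes tested. The Pparg fl/- mice lie at 0.17 to 0.40 and at -0.23 to -0.44, away from the medians of all probes, and the sizes in the Pparg+/- mice are raised by the choice of probes.

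The difference in response between genotypes did not pass the adjusted test for single probes. With the mouse as a block, 0 of 16620 probes (0%) differed in their response between genotypes at an adjusted p under 0.05 in limma, 1332 had an unadjusted p under 0.05, and the smallest adjusted p was 0.0576. The result lies close to the threshold, since 20 were called with a stricter detection filter, 21 over only the probes detected in Pparg fl/- macrophages and 27 in a fit of all 32 arrays. The lowest p was that of mCG132531.2, detected on all 8 Pparg fl/- arrays, which changed by -2.59 in Pparg+/- and by -0.08 ± 0.17 in Pparg fl/- macrophages, at -0.29, 0.17, 0.12 and -0.33 in mice 5 to 8.

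Probes that respond in iDCs were also read in the macrophages, since this choice uses no macrophage array. In iDCs of Pparg+/- mice 634 probes were called higher and 657 lower (7.77% in all). The 634 had a median change of 0.031 in Pparg fl/- macrophages, where 357 (56.3%) were higher, and of 0.099 in Pparg+/- macrophages, where 383 (60.4%) were. The 657 had a median of -0.094 in Pparg fl/- macrophages, with 438 (66.7%) lower, and of -0.21 in Pparg+/- macrophages, with 476 (72.5%) lower. The mice of the genotypes overlapped in both lists, at -0.017 to 0.13 against 0.086 to 0.14 for the first and at -0.17 to 0.0017 against -0.27 to -0.16 for the second. In the first list the overlap rested on mouse 5 alone, since mice 6 to 8 lay at -0.017 to 0.069, and in the second on mouse 8. Without mouse 5 the medians in Pparg fl/- macrophages were 0.011 and -0.074. Probes called in the iDCs of the Pparg fl/- mice themselves were read too. In the macrophages of these mice 53 of 104 higher (51%) and 66 of 98 lower probes (67.3%) kept their direction. Their medians were 0.010 and -0.11, or -0.0025 and -0.14 without mouse 5. Over all 16620 probes tested, 7689 (46.3%) were higher in Pparg fl/- macrophages and 8931 lower. The response differed between macrophages and iDCs of the Pparg fl/- mice for 144 probes (0.866%). There were 48 more positive and 96 more negative in macrophages (19 and 67 with median scaling). Without mouse 5, 6, 7 or 8 the count was 72, 28, 76 or 19, and with no replicate block it was 18.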

How the data were processed

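Total RNA of each culture was hybridised to an Applied Biosystems single-colour chemiluminescence array. For each array the authors deposited a table with a background-corrected signal per probe on a linear scale, its standard deviation and its S/N, a score the authors' scanner output gives per probe; at an S/N up to 1 the value given is the noise level. The authors also deposited a linear ratio for each probe and array, which is the signal after division by an array constant and the probe's median; which statistic gave the array constant is unknown. Detection software and its version are not given in the sources used here, and the paper's methods do not describe these arrays.

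Signals were log2-transformed and quantile normalized over all 32 arrays, and control spots were left out. Probes with S/N of at least 3 on at least 3 of 4 arrays of at least 1 of 8 groups were tested (16620 of 33012). limma 3.58.1 in R 4.3.3 was fitted to the 16 macrophage arrays with the mouse as a block and an RSG effect per genotype. iDCs were fitted in the same manner, and cell types over all 32 arrays. Calls needed a change of 1.5-fold or more and a p under 0.05 after Benjamini-Hochberg adjustment. Fold changes and SEs are on the log2 scale, and each SE rests on a spread pooled over both genotypes. The number of arrays limits the precision. The fit was tested on simulated data. The arrays of a number come from 1 mouse. Vehicle and RSG arrays of the same Pparg fl/- mouse deviated together, at a correlation of 0.297 to 0.623 (mice 5 to 8), which is why the pairing was kept. The lowest value in Pparg+/- mice was 0.0095 (mouse 4).

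Named are every called probe; of the named genes detected in Pparg fl/- macrophages and changed in 1 direction in all 4 mice, the 10 largest rises and falls (9 rises existed); the named genes called in Pparg+/- macrophages; and each member with a named probe of the fixed gene and marker lists. Names came from RefSeq accessions (311 probes), symbols or synonyms (6) and accessions in the study's supplementary tables (8). The arrays were taken by their labels; this comparison, the named members and the gene lists were chosen with earlier results of these data known. The counts over each mouse, the vehicle levels of mouse 5 against both genotypes, the median-scaled values of single mice, the medians of the iDC lists without mouse 5 and the reading of probes called in Pparg+/- iDCs were added after the data had been seen. Alternatives were median scaling, the deposited ratios, no block, other detection filters and thresholds, other array sets, the methods' t-test, a signal offset, a scan day block and fits without 1 mouse.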

Additional observations from a re-analysis of the deposited data

Results flagged for a closer look

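In groups of 4, a value was marked where its gap to the nearest other value took up most of the group's range; of 70 sets of 4 values looked at 10 were marked, where chance gives about 1 in 20. With vehicle, mouse 5 was marked for Crip1 (gap over range 0.893), Trim59 (0.905), Cebpb (0.908) and Hba-a1 (0.886), and with RSG again for Hba-a1 (0.915), whose log2 signals were 8.59 and 8.67 in mouse 5 against 12.15 to 12.67 in mice 6 to 8. Mouse 7 was marked for Edar with vehicle (0.914) and RSG (0.912), for mCG4048.2 with RSG (0.830) and for Gpbar1 with RSG (0.938). Mouse 6 was marked for Vmn1r52 with RSG (0.881).

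Some genes moved in opposite directions between groups in every mouse, or differed by test. Zbtb18 was higher in 4 of 4 Pparg fl/- and lower in 4 of 4 Pparg+/- mice (difference 0.38, adjusted p = 0.545 in limma). Median scaling does not keep these opposite directions, as the mean changes are then -0.049 in Pparg fl/- and -0.48 in Pparg+/- macrophages. Mydgf was lower in 4 of 4 Pparg fl/- and higher in 4 of 4 Pparg+/- mice (difference -0.34, adjusted p = 0.448 in limma), and with median scaling 3 of 4 Pparg+/- mice were lower too. Between cell types of the Pparg fl/- mice, Cd99 was lower in macrophages and higher in iDCs of all 4 mice (difference -0.54, adjusted p = 0.161 in limma), and with median scaling mouse 5 was at 0.0075 in macrophages. The adjusted test was passed by Ear1 (-1.53, adjusted p = 0.0465 in limma) and by mCG123926.1 (-2.04, adjusted p = 0.0390 in limma), but the latter was above background on 0 of 8 iDC arrays of these mice, so this value is not a measured difference.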

How the results depend on the processing

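The count of probes called in Pparg fl/- macrophages, 5, fell to 0 with no replicate block, with no detection filter, in a fit of only the 8 arrays compared, with scan day as a block and by the methods' t-test after adjustment (207 before), and to 3 with a stricter detection filter; leaving out 1 mouse gave 0 to 5. In Pparg+/- macrophages 494 became 199 with no replicate block, 180 with no detection filter, 742 with no fold threshold, 249 at 2-fold, 176 with only the arrays compared, 240 with scan day as a block and 199 by the t-test (861 before adjustment), and 259 to 463 without 1 mouse. The difference between genotypes, 0 probes, became 1 with no replicate block, 2 with scan day as a block, 20 with the stricter filter, 21 over probes detected in Pparg fl/- macrophages and 27 over all 32 arrays, and was 0 to 1 without 1 mouse. In Pparg fl/- iDCs 202 became 93 with median scaling, 94 with the deposited ratios, 115 with no replicate block, 117 at 2-fold, 459 over all 32 arrays, and 0 with no detection filter, with only the arrays compared and by the t-test (538 before adjustment), with 0 to 175 without 1 mouse. The difference between cell types, 144, became 86 with median scaling and with the deposited ratios, 18 with no replicate block, 41 with no detection filter and 93 at 2-fold, with 19 to 138 without 1 mouse.

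The medians of the probes called higher and lower in Pparg+/- macrophages were 0.17 and -0.42 with median scaling and with the deposited ratios. The higher list stood at 0.40 when chosen with no replicate block and at 0.50 when chosen at 2-fold. Without 1 mouse the medians were 0.26 to 0.39 and -0.34 to -0.26. The loss of detected probes was -1124 to -619 without 1 mouse. Of 462 values of 33 named probes under alternatives, 401 kept direction and side of the threshold, 50 lost a call and 11 turned: Gnas to -0.0038, Wnk4 to -0.027, Zbtb18 to -0.049 and Paqr3 to -0.052 with median scaling and with the deposited ratios, and, without 1 mouse, Sfrp4 (-0.12 without mouse 5, range -0.12 to 0.65), H2-Q8 (-0.020 without mouse 7, range -0.020 to 0.51) and Nlrp3 (0.42 without mouse 8, range -0.57 to 0.42). The cause of these shifts was not tested. Signal over background limits the dim probes.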
